A study of Schizosaccharomyces pombe with 88 samples.

Results

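The genes described here are the peroxiredoxin and thioredoxin redox system of the fission yeast Schizosaccharomyces pombe, together with the peroxide-responsive regulator and a pair of neighbouring antioxidant enzymes. They were chosen by name, with earlier results of these data known. The 8 genes pap1, srx1, tpx1, trr1, trx1, trx2, gpx1 and sod1 were found through the gene symbols and synonyms of the array platform, among 4815 genes with a name. Each of the 8 genes had 2 probes, so 16 of the 9858 probes on the array belonged to them. All 8 passed the filter on missing values, and all 16 probes had a value on every array that was used. Only tpx1, srx1, trx1, trx2 and trr1 belong to the peroxiredoxin and thioredoxin system in the narrow sense, while gpx1, sod1 and pap1 are its partners in antioxidant defence.

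Peroxiredoxins reduce hydrogen peroxide with a reactive cysteine and are then returned to their active form by thioredoxin, which in turn is recycled by thioredoxin reductase with electrons from NADPH. When peroxide is high the cysteine of the peroxiredoxin Tpx1 is over-oxidised, and sulfiredoxin (Srx1) repairs it. In fission yeast Tpx1 also passes the peroxide signal to the transcription factor Pap1, which collects in the nucleus after oxidation, and the stress kinase Sty1 acts beside it through the transcription factor Atf1.

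RNA was measured on 2-colour arrays in cultures made synchronous by elutriation, a centrifugation that collects small cells in early G2. The 4 strains were wild type (WT) and the mutants rad3, cds1 and chk1. Rad3 is the ATR-like kinase at the head of the checkpoint, and it acts through Cds1 when replication stalls and through Chk1 when DNA is damaged. The labels name no allele for any of the mutants. Each strain was sampled at 0 min and then at 40, 80, 120, 160 and 200 min, either untreated or with 8 mM hydroxyurea (HU). HU blocks ribonucleotide reductase, the enzyme that makes deoxynucleotides, and so stalls DNA replication. On every array the sample carried Cy5 and the shared reference, RNA of asynchronous untreated WT cells from mid-log culture, carried Cy3. A level is therefore a log2 ratio of sample over that reference, and a level of 0 equals the reference. Each condition had 2 technical array repeats, which were averaged.

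The labels name no replicate cultures, so strain and culture cannot be told apart, and a p-value here measures only how these samples vary, which may be technical. Of 88 arrays in 44 conditions, 82 arrays in 41 conditions were used. The arrays of the chk1 mutant at 120 min in both arms and with HU at 200 min were left out because they nearly equal WT arrays: the SD of the difference over probes was 0.00125 to 0.179 in the 6 matching pairs, against at least 0.235 in any other pair of strains. The comparison of HU with untreated cells therefore has WT alone, without chk1, at 120 and 200 min. Arrays of 0 min had a wider spread over probes (SD 0.772 to 0.944 on 8 arrays) than later arrays (0.342 to 0.709 on 80). The median correlation between repeats was 0.691 in WT and 0.769 in rad3, but 0.976 in cds1 and 0.989 in chk1, and both HU arrays of chk1 at 160 min were equal at 77.1% of values. The mutated gene was at a mean of -2.70 in rad3 and -2.94 in cds1 (n = 11 conditions), against -0.45 and 0.36 in WT. The chk1 gene was at -1.19 in the library set labelled chk1 (n = 8) and at -0.36 in WT (n = 11), and these ranges overlapped.

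The levels of the 8 genes fell into 3 kinds. The genes srx1 and gpx1, for sulfiredoxin and a glutathione peroxidase, covered the widest ranges over the 41 conditions. The level of srx1 ran from -0.41 to 3.54 with a median of 0.78, and that of gpx1 from -1.08 to 4.10 with a median of 0.41. The gene sod1, for copper-zinc superoxide dismutase, ran from -0.22 to 2.63 with a median of 1.06. The genes tpx1 (peroxiredoxin), trx1 (cytosolic thioredoxin) and trx2 (mitochondrial thioredoxin) had intermediate ranges, of -0.24 to 1.35, 0.29 to 1.90 and -1.32 to 0.37. The genes trr1 (thioredoxin reductase) and pap1 had the narrowest, of -0.47 to 0.63 and -0.26 to 0.73. The 18 HU conditions and the 19 untreated conditions overlapped for every one of the 8 genes when all times were pooled.

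**Figure D1:**
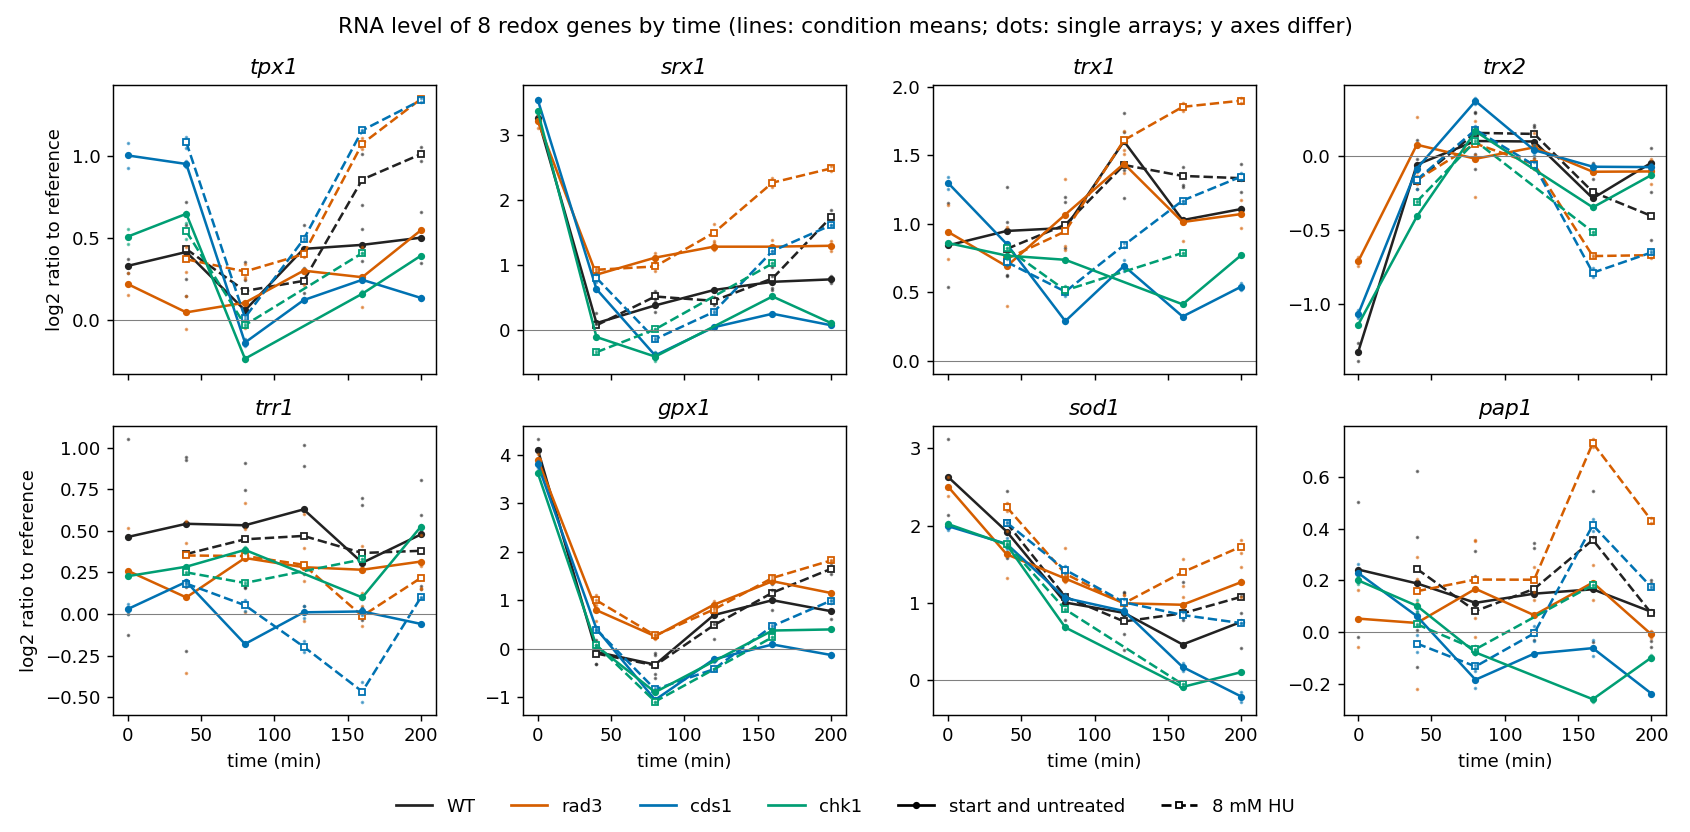
Levels of the 8 redox genes (log2 ratio to the reference) against time in minutes, with a panel per gene and y axes that differ. Lines join condition means of the 4 strains, solid for the start and untreated arm and dashed for 8 mM HU, and dots are single arrays; srx1 and gpx1 start above 3 and drop by 40 min, and the dashed lines of srx1 and tpx1 leave the solid ones at the late times.

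The first comparison asks how the state of the cells just after elutriation differed from that at 40 min. At 0 min gpx1 was 11.7-fold and srx1 7.87-fold above 40 min, trx2 was lower, and tpx1, trx1, trr1 and pap1 did not pass the test. The level of gpx1 at 0 min in WT, rad3, cds1 and chk1 was 4.10, 3.90, 3.80 and 3.62, against -0.06, 0.80, 0.41 and 0.06 at 40 min. For srx1 it was 3.26, 3.21, 3.54 and 3.37 in the same order, against 0.11, 0.85, 0.63 and -0.11 at 40 min. For both genes all 4 strains were high at 0 min, and the groups did not overlap. In limma's moderated test the difference was 3.55 ± 0.19 (SE) for gpx1 (adjusted p = 2.89e-12) and 2.98 ± 0.22 for srx1 (adjusted p = 4.87e-10). In these cultures a change in some of the cells and a change in all of them cannot be told apart.

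The thioredoxin of the mitochondria went the other way. In WT, rad3, cds1 and chk1 the level of trx2 at 0 min was -1.32, -0.71, -1.07 and -1.14, against -0.06, 0.08, -0.08 and -0.41 at 40 min. All 4 strains were low at 0 min with no overlap, and the difference was -0.94 ± 0.11 (adjusted p = 1.58e-07). Superoxide dismutase sod1 was at 2.63, 2.51, 1.99 and 2.02 at 0 min in WT, rad3, cds1 and chk1, and at 1.92, 1.63, 1.76 and 1.75 at 40 min. Its rise of 0.52 ± 0.18 passed (adjusted p = 0.015), but not without WT (0.46, adjusted p = 0.102).

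The other members were close to their 40 min levels at the start. The difference was 0.17 ± 0.16 for trx1 (adjusted p = 0.362), 0.08 ± 0.08 for pap1 (0.389), 0.00 ± 0.17 for tpx1 (0.999) and -0.04 ± 0.09 for trr1 (0.748). So 4 of the 8 genes passed, 3 higher and 1 lower, where 67.7% of all units tested passed (30.1% higher and 37.6% lower), a larger share than among the 8. The median difference of the 8 was 0.13, against -0.05 over all units. The wider spread of the 0 min arrays moved with this comparison. After quantile normalization, which gives all arrays the same spread, the difference shrank to 1.14 for srx1 (adjusted p = 0.000359) and 1.41 for gpx1 (1.62e-05), and that of sod1 turned to -0.85 (0.00823), so that 2 of the 8 were higher and 2 lower.

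**Figure D2:**
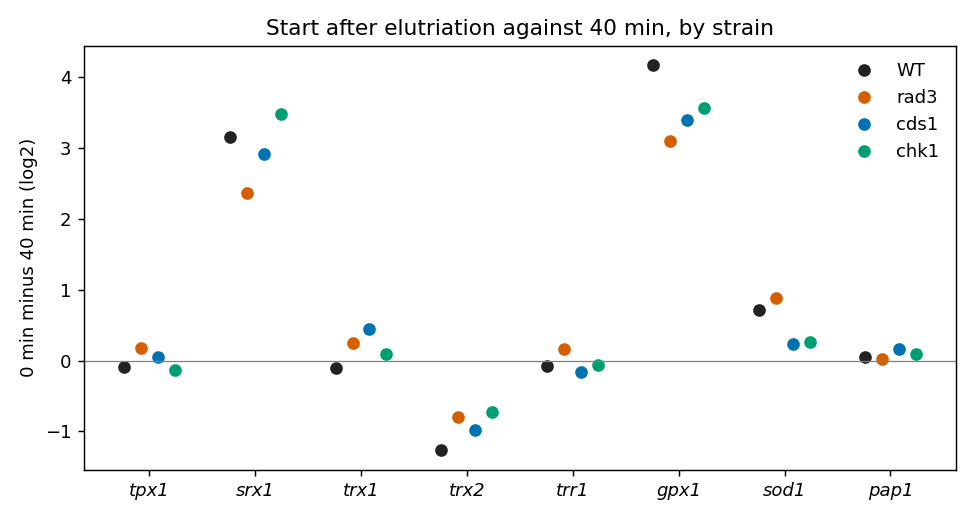
Difference in level between 0 min and 40 min (log2) for the 8 genes, with a point per strain. All 4 strains lie between 2.36 and 4.17 for srx1 and gpx1 and below 0 for trx2, while the points of tpx1, trr1 and pap1 lie near 0.

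Other redox genes at the start are read against the 30.1% of all units that rose and the 37.6% that fell. Among 9 other antioxidant enzymes 7 rose and 1 fell, with pmp20 (a peroxiredoxin-family protein) at 2.23 ± 0.16, zwf1 (glucose-6-phosphate dehydrogenase) at 2.20 ± 0.23 and ctt1 (catalase) at 1.79 ± 0.11. The 1 that fell was ccs1, the copper chaperone of superoxide dismutase, at -0.49 ± 0.08. Of 12 measured glutathione and glutaredoxin genes 3 rose and none fell, a share below that of all units, with gst3 (a glutathione S-transferase) the highest at 3.26 ± 0.16. Of 13 genes of Pap1 and Sty1 signalling 8 rose and 1 fell, among them both subunits of the Atf1-Pcr1 transcription factor, with pcr1 at 2.83 ± 0.11 and atf1 at 2.55 ± 0.13, and the phosphorelay gene mpr1 at 2.59 ± 0.13. All 3 measured drug and stress genes that depend on Pap1 rose, from 0.34 for pmd1 to 0.56 for obr1. After quantile normalization 4 of the antioxidant enzymes rose and 1 fell, and none of the 3 genes that depend on Pap1 passed, where 56.9% of all units were called. The counts of the glutathione and signalling lists were then the same, 3 and 0, and 8 and 1. The stress genes gpd1 and hsp9, used as markers, were higher by 2.58 and 2.15, and their part in the redox result was not tested.

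During the untreated course from 40 to 200 min, which spans mitosis and the following S phase, 2 of the 8 genes changed with time. They were sod1 and gpx1, and 40.7% of all units passed the same F test. Superoxide dismutase fell through the course. Its mean over strains was 1.77 ± 0.12 (SD, n = 4) at 40 min, 1.01 ± 0.26 (n = 4) at 80 min, 0.92 ± 0.07 (n = 3) at 120 min, 0.38 ± 0.46 (n = 4) at 160 min and 0.48 ± 0.66 (n = 4) at 200 min. The 40 min levels, 1.63 to 1.92, lay above all those of 80 to 200 min, which reached at most 1.31. The F test gave adjusted p = 3.79e-05, and the difference from 40 min was -1.39 ± 0.18 at 160 min (adjusted p = 2.72e-05) and -1.29 ± 0.18 at 200 min (2.90e-05). The fall at 80 min, -0.75 ± 0.18 (0.012), did not pass without WT (-0.70, adjusted p = 0.12) or without chk1 (-0.65, 0.123).

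Glutathione peroxidase dipped at 80 min. Its level at 80 min in WT, rad3, cds1 and chk1 was -0.32, 0.26, -1.05 and -0.89, each below the 40 min level of the same strain. The difference was -0.80 ± 0.19 (adjusted p = 0.00927), and it missed the threshold without cds1 (-0.58, 0.0584) or without chk1 (-0.75, 0.0964). By 160 min the mean over strains had returned to 0.72 ± 0.59 (SD, n = 4), and the F test gave adjusted p = 0.000316.

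The peroxiredoxin tpx1 showed a dip that was larger on its second probe. Its level fell from 0.41 to 0.06 in WT, 0.95 to -0.14 in cds1 and 0.65 to -0.24 in chk1 between 40 and 80 min, and was 0.04 and 0.10 in rad3. The contrast of -0.57 ± 0.17 passed (adjusted p = 0.04) although the F test over all times did not (0.0762). The first probe alone gave -0.17 (0.409) and the second -0.96 (0.0617), and the call was also lost without WT (-0.64, 0.117), cds1 (-0.39, 0.132) or chk1 (-0.46, 0.271). With sod1 and gpx1 that makes 3 of 8 lower at 80 min, where 8.24% of all units passed and 3.9% were lower. The F test did not call trx2 (adjusted p = 0.0634), trx1 (0.153), srx1 (0.283), pap1 (0.529) or trr1 (0.585). At 120, 160 and 200 min only sod1 differed from 40 min, where 25%, 25.3% and 29.7% of all units did and 13%, 13.9% and 15% were lower.

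Without HU, the mutants were next compared with WT over the matched times. Against WT, 4 of the 8 genes were lower in cds1, where 40.1% of all units passed (20.2% lower), 1 in rad3, where 9.92% did (6.51% lower), and 0 in chk1, where 16.9% did. In cds1 the calls were trr1 (-0.49 ± 0.07, adjusted p = 5.75e-05), gpx1 (-0.55 ± 0.15, 0.00785), trx1 (-0.42 ± 0.13, 0.0177) and pap1 (-0.20 ± 0.07, 0.0245). In rad3 the call was trr1 (-0.23 ± 0.07, 0.0494). In chk1 limma called none after adjustment, and the closest was sod1 (-0.44 ± 0.16, adjusted p = 0.0582). An unadjusted p under 0.05 was found for 5 of the 8 genes and for 1580 of the 4928 units.

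Several of these differences were of the size of a steady gap between the WT array repeats. For trr1 the second WT repeat was the higher in 11 of 11 conditions, by 0.43 to 1.18, and in rad3 the first repeat was the higher in 10 of 11. The second WT repeat was also the higher in 11 of 11 conditions for pap1, trx1, gpx1 and sod1, with median gaps of 0.36, 0.42, 0.40 and 0.68. In cds1 and chk1 no member had a median gap over 0.09. With only the first repeat of each condition, trr1 in rad3 turned to 0.45 above WT (adjusted p = 0.00034), and with only the second it was -0.91 (8.69e-07). With only the first repeat pap1 in rad3 was 0.23 above WT, and none of the 4 calls in cds1 remained: trr1 was at -0.09 (0.446), gpx1 at -0.38 (0.0968), trx1 at -0.20 (0.389) and pap1 at -0.03 (0.816). The trr1 call in rad3 also missed the threshold without chk1 (-0.23, adjusted p = 0.0511) and passed with the same sign in 5 of 14 alternatives.

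The level of srx1 without HU was highest in rad3 at each time from 40 to 200 min, at 0.85, 1.11, 1.28, 1.28 and 1.30. In WT it was 0.11, 0.38, 0.61, 0.74 and 0.78 at the same times. Over the whole course with the start, the rad3 mutant exceeded WT by 0.53 ± 0.18 (adjusted p = 0.0681), which missed the threshold.

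HU was compared with the untreated arm at the same strain and time. WT and chk1 formed a pair of strains, and rad3 and cds1, which are mutants of the replication checkpoint, formed the other. These pairs follow earlier work on this series, so the grouping was not chosen independently of these data. At 40, 80 and 120 min limma called 0 of the 8 genes in either pair. Among the comparisons in WT and chk1, 1 gene had an unadjusted p under 0.05 at 80 min (srx1, 0.28 ± 0.13) and none did at 40 and 120 min. In rad3 and cds1 1 gene did at 40 min (sod1, 0.44 ± 0.13), none at 80 min, and 1 at 120 min (tpx1, 0.24 ± 0.11). Of the 4928 units, 294 did in WT and chk1 at 80 min. In rad3 and cds1 550 units did at 40 min, 199 at 80 min and 529 at 120 min. In a further fit the untreated array of the same repeat number was subtracted from each HU array. This fit of single arrays with a replicate block counts technical repeats as samples. It called 1 gene in rad3 and cds1 at 40 min and none in the other 5 cases of pair and time. The share of all units called by this further fit is not given here, so its count cannot be set against other genes. In the main fit of condition means, 0% of all units were called at 40 and at 80 min in both pairs. At 120 min that fit called 0.325% in WT and 0.609% in rad3 and cds1. The single differences at these times reached from -0.24 to 0.61 over all 8 genes.

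At 160 and 200 min of HU 7 of the 8 members passed in the rad3 and cds1 mutants, where 38.3% and 35.9% of all units did. Sulfiredoxin, the peroxiredoxin and cytosolic thioredoxin were 1.76- to 2.58-fold higher and mitochondrial thioredoxin was 1.49- to 1.56-fold lower. For WT and chk1 at 160 min 3 members passed (20.4% of all units), each with a rise of 1.25- to 1.27-fold, and in WT at 200 min srx1, gpx1 and tpx1 did (11.3% of all units), with 1.42- to 1.94-fold.

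**Figure D3:**
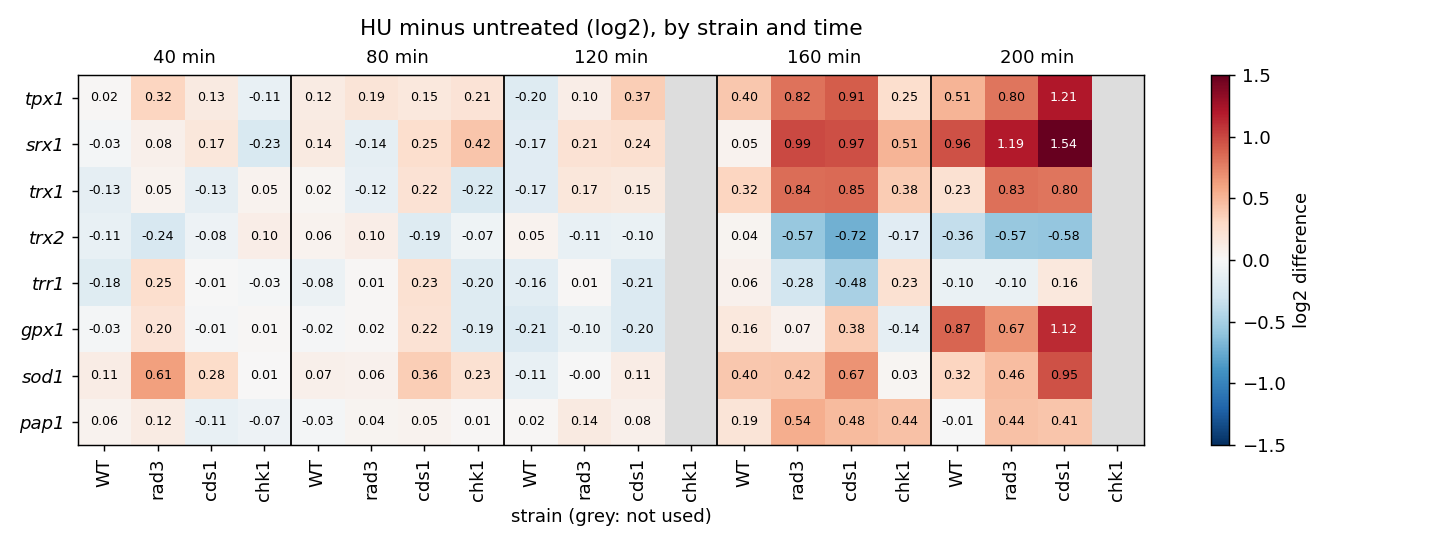
Difference in level between HU and untreated cells (log2) for the 8 genes, by strain within each time; red is higher with HU, blue is lower, and grey marks chk1 at 120 and 200 min, which was not used. Values lie within -0.24 and 0.61 up to 120 min, and at 160 and 200 min the rad3 and cds1 columns hold srx1 at 0.97 to 1.54 and trx2 at -0.72 to -0.57.

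Sulfiredoxin srx1 rose the most. In rad3 the array repeats gave 2.34 and 2.20 with HU at 160 min against 1.18 and 1.39 without, and 2.45 and 2.53 at 200 min against 1.22 and 1.38. In cds1 they gave 1.21 and 1.22 with HU at 160 min against 0.23 and 0.27 without, and 1.61 and 1.62 at 200 min against 0.07 and 0.08. In both mutants every HU array lay above every untreated array of the same strain and time, and rad3 stood above cds1 in both arms. The HU effect was 0.98 ± 0.13 at 160 min (1.97-fold, adjusted p = 3.46e-05) and 1.37 ± 0.13 at 200 min (2.58-fold, 1.86e-06).

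The values of srx1 in WT and chk1 follow, with WT alone at 200 min. In WT at 160 min the repeats were 0.98 and 0.61 with HU and 0.83 and 0.65 without, which overlap. In chk1 at 160 min they were 1.02 and 1.02 with HU and 0.53 and 0.50 without. The HU arrays of chk1 lay above its untreated ones, and the joint effect was 0.28 ± 0.13 (adjusted p = 0.136, and 0.018 in the fit of single arrays with a replicate block). At 200 min WT reached 1.64 and 1.84 with HU against 0.84 and 0.72 without, a rise of 0.96 ± 0.18 (adjusted p = 0.00296, for a single strain whose error comes from the remaining strains of the fit). The first srx1 probe alone gave 0.64 for this rise (adjusted p = 0.254).

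The peroxiredoxin tpx1 rose in the same samples. In rad3 the repeats were 1.11 and 1.04 with HU at 160 min against 0.07 and 0.44 without, and 1.35 and 1.34 at 200 min against 0.55 and 0.54. In cds1 they were 1.15 and 1.16 with HU at 160 min against 0.24 and 0.24 without, and 1.33 and 1.35 at 200 min against 0.15 and 0.12. No HU array overlapped an untreated one in either mutant, and the mutants reached like levels with HU. The effect was 0.86 ± 0.11 at 160 min (adjusted p = 2.26e-05) and 1.00 ± 0.11 at 200 min (7.21e-06).

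The size of the tpx1 rise depended on the probe. The first probe alone gave 0.37 at 200 min in rad3 and cds1 (adjusted p = 0.0633) and the second gave 1.63 (9.1e-07). The correlation of the 2 tpx1 probes over the 82 arrays was 0.46, the lowest of the 8 genes, whose other values ran from 0.74 to 0.99. In WT and chk1 at 160 min tpx1 was higher by 0.32 ± 0.11 (0.0457), and in WT at 200 min by 0.51 ± 0.15 (0.0422). Neither held on the first probe, at 0.14 (0.559) and -0.03 (0.957). At 160 min the call was lost without WT (0.25, adjusted p = 0.365) or without chk1 (0.40, 0.189), and at 200 min it was lost without chk1 (0.51, 0.0762).

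**Figure D4:**
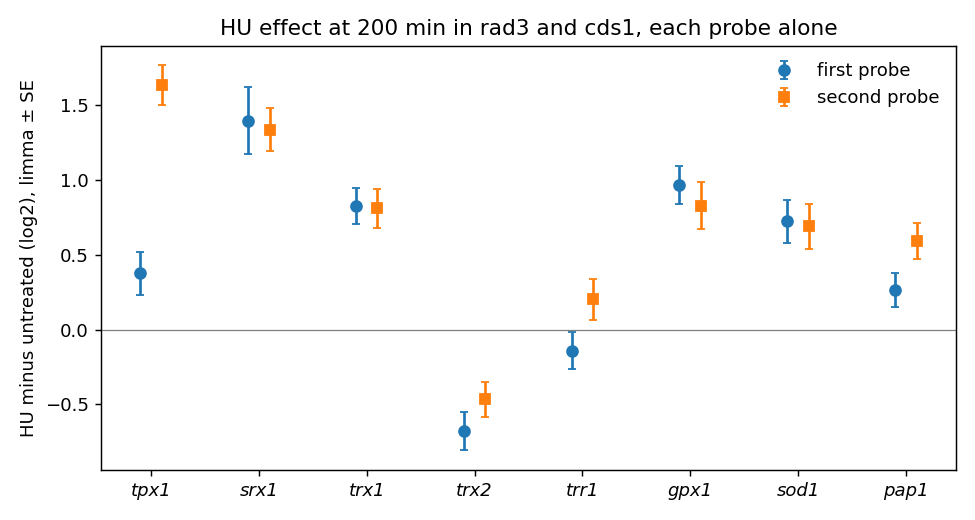
HU effect at 200 min in rad3 and cds1 (log2, limma estimate with bars of ± 1 SE) from each of the 2 probes of the 8 genes. The probes of tpx1 lie apart at 0.37 and 1.63, and the probes of srx1, trx1, gpx1 and sod1 lie close to each other.

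The 2 thioredoxins moved in opposite directions. Cytosolic trx1 in rad3 was at 1.82 and 1.88 with HU at 160 min against 1.15 and 0.87 without, and at 1.92 and 1.88 at 200 min against 1.17 and 0.97. In cds1 it was at 1.17 and 1.17 with HU at 160 min against 0.33 and 0.31, and at 1.37 and 1.32 at 200 min against 0.52 and 0.56. Again no HU array overlapped an untreated one of its strain and time. The effect was 0.84 ± 0.10 at 160 min (adjusted p = 1.58e-05) and 0.82 ± 0.10 at 200 min (2.68e-05). The rise of trx1 in WT and chk1 was 0.35 ± 0.10 at 160 min (0.0232), a call that was lost without WT (0.38, 0.121) or without chk1 (0.32, 0.233). In WT at 200 min the difference was 0.23 ± 0.14 (0.341).

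Mitochondrial trx2 in rad3 was at -0.67 and -0.68 with HU at 160 min against -0.11 and -0.10 without, and at -0.69 and -0.65 at 200 min against -0.02 and -0.19. In cds1 it was at -0.76 and -0.82 with HU at 160 min against -0.09 and -0.05, and at -0.64 and -0.66 at 200 min against -0.05 and -0.09. All HU arrays of both mutants were below all untreated ones at these times. The effect was -0.64 ± 0.10 at 160 min (adjusted p = 0.000158) and -0.57 ± 0.10 at 200 min (0.000516). The difference of trx2 in WT and chk1 was -0.06 ± 0.10 at 160 min (0.714), and in WT at 200 min it was -0.36 ± 0.14 (0.114).

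Thioredoxin reductase trr1, which recycles these proteins, did not rise with them. It was lower by 0.48 in cds1 and by 0.28 in rad3 at 160 min, a joint effect of -0.38 ± 0.11 (adjusted p = 0.0118). The call was lost without cds1 (-0.28, 0.208), and at 200 min the effect was 0.03 ± 0.11 (0.841). Its effect in WT and chk1 was 0.14 ± 0.11 at 160 min (0.377), and in WT it was -0.10 ± 0.15 at 200 min (0.744).

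Glutathione peroxidase gpx1 passed the test with HU at 200 min. At 160 min its difference was 0.22 ± 0.12 in rad3 and cds1 (adjusted p = 0.157, and 0.0368 in the fit of single arrays with a replicate block) and 0.01 ± 0.12 in WT and chk1 (0.972). At 200 min the repeats with HU were 1.54 and 1.76 in WT, 1.81 and 1.83 in rad3, and 0.99 and 1.00 in cds1. Without HU they were 0.61 and 0.94 in WT, 1.17 and 1.13 in rad3, and -0.16 and -0.09 in cds1. Every strain was higher with HU and none overlapped its own untreated arrays. The effect was 0.90 ± 0.12 in rad3 and cds1 (5.80e-05) and 0.87 ± 0.17 in WT (0.00392).

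Superoxide dismutase sod1 was higher in rad3 and cds1 by 0.55 ± 0.13 at 160 min (adjusted p = 0.00466) and 0.71 ± 0.13 at 200 min (0.000865). In cds1 its untreated level had fallen to -0.28 and -0.15 at 200 min, while with HU it was 0.74 and 0.74. Without cds1 both calls were lost (0.42 at 160 min, adjusted p = 0.0959, and 0.46 at 200 min, 0.0713). The sod1 difference in WT and chk1 was 0.22 ± 0.13 at 160 min (0.265), and in WT it was 0.32 ± 0.19 at 200 min (0.285).

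The regulator gene pap1 changed by smaller amounts. In rad3 and cds1 it was higher by 0.51 ± 0.09 at 160 min (1.42-fold, adjusted p = 0.000542) and by 0.43 ± 0.09 at 200 min (1.34-fold, 0.00226). The call at 200 min was lost on the first probe alone (0.26, 0.0969, against 0.59 on the second), without rad3 (0.41, 0.065) or without cds1 (0.44, 0.0601). Its rise in WT and chk1 was 0.32 ± 0.09 at 160 min (0.0235), with 0.19 in WT and 0.44 in chk1. That call was lost without any of the 4 strains, at 0.19 without chk1 (adjusted p = 0.46), 0.44 without WT (0.0543), and 0.32 without rad3 or without cds1 (0.0538 each). In WT at 200 min the difference was -0.01 ± 0.13 (0.987).

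Counted over the 8 genes, the rad3 and cds1 mutants had 5 higher and 2 lower at 160 min, where 38.3% of all units were called (21.1% higher and 17.1% lower). At 200 min they had 6 higher and 1 lower, where 35.9% were called (17% higher and 18.9% lower). The share of the 8 was thus above that of all units at both times, and the median effect was 0.53 and 0.76, against 0.02 and -0.02 over all units. The 8 genes were chosen with earlier results of these data known, so this describes them and is not a test of the set. In WT and chk1 at 160 min 3 of the 8 were higher (pap1, tpx1 and trx1), where 20.4% of all units were called and 9.88% were higher. In WT at 200 min 3 of the 8 were higher (srx1, gpx1 and tpx1), where 11.3% were called and 5.82% were higher. The fit of single arrays with a replicate block, which counts technical repeats as samples, called 8 of the 8 in rad3 and cds1 and 4 in WT and chk1 at 160 min, and 7 and 4 (WT alone) at 200 min. The share of all units called by that fit is not given here, so these counts cannot be set against the shares above. In the main fit, averaged over both pairs of strains, 6 of the 8 passed at 160 min, where 44.1% of all units did, and 6 at 200 min, where 34.6% did.

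The spread of the arrays moved with the late HU effect. At 200 min the mean SD over probes was 0.553 with HU and 0.347 without in cds1, 0.624 and 0.417 in rad3, and 0.565 and 0.460 in WT. After quantile normalization 3 of the 8 were higher and 2 lower in rad3 and cds1 at 160 min, where 34.7% of all units were called, and 3 were higher and 1 lower at 200 min, where 31.8% were. In WT none passed at 200 min, where 4.93% of all units did, and 1 was higher in WT and chk1 at 160 min, where 23.7% were called. Under it the rise at 200 min in rad3 and cds1 was 0.75 for srx1 (adjusted p = 0.0257), 0.62 for tpx1 (0.0084), 0.49 for gpx1 (0.116), 0.36 for sod1 (0.281) and 0.15 for trx1 (0.491). At 160 min it was 0.50 for srx1 (0.115), 0.47 for trx1 (0.0336) and 0.27 for sod1 (0.429). In WT at 200 min it was 0.39 for srx1 (0.536), 0.37 for gpx1 (0.545) and 0.29 for tpx1 (0.479), and in WT and chk1 at 160 min it was 0.29 for tpx1 (0.191) and 0.17 for trx1 (0.463).

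**Figure D5:**
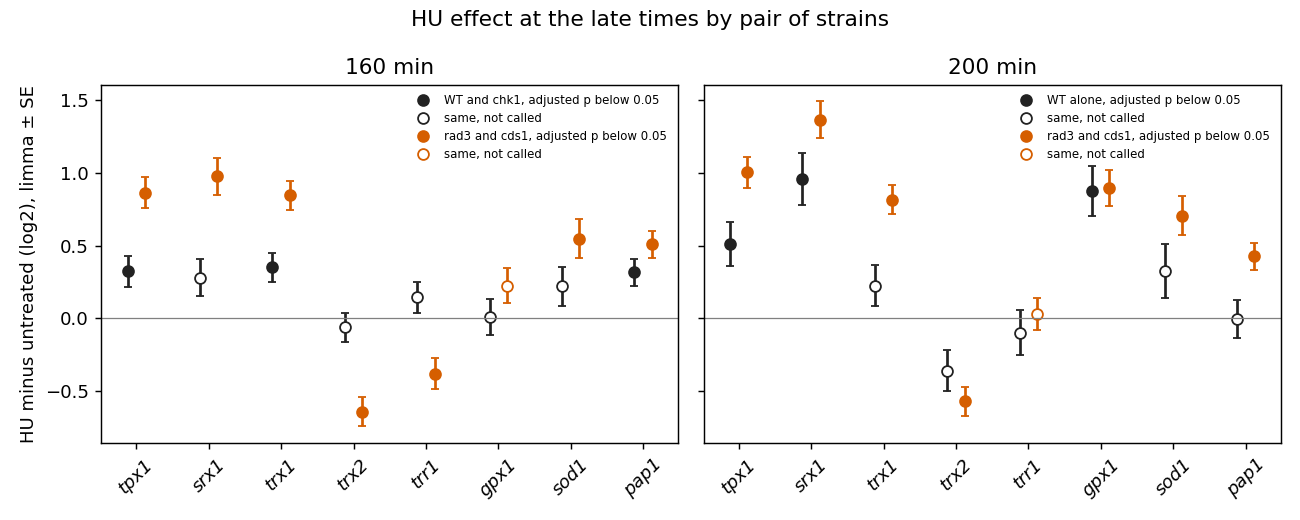
HU effect (log2, limma estimate with bars of ± 1 SE) at 160 min and 200 min for the 8 genes in rad3 and cds1 and in WT and chk1 (WT alone at 200 min); filled points have an adjusted p under 0.05. At 160 min the pairs lie furthest apart for srx1 (0.98 and 0.28) and trx2 (-0.64 and -0.06), and at 200 min the points of gpx1 lie side by side at 0.90 and 0.87.

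The difference between the pairs of strains was itself tested. At 160 min it passed for 2 of the 8 genes, where 5.01% of all units passed. The HU effect on srx1 was larger in rad3 and cds1 by 0.70 ± 0.18 (adjusted p = 0.0359), and that on trx2 was lower by 0.58 ± 0.14 (0.0269). The calls for tpx1 (0.54 ± 0.15, 0.0536), trx1 (0.50 ± 0.14, 0.0587) and trr1 (-0.52 ± 0.15, 0.0619) just missed the threshold. The fit of single arrays with a replicate block called these as well (0.00192, 0.00267 and 0.0102), 5 of the 8. Its estimates were the same, and its p-values are smaller in a fit that counts technical repeats as samples, so they add no evidence. Both HU arrays of chk1 at this time were equal at 77.1% of values. At 200 min limma called 0 of the 8, where 1.52% of all units passed. An unadjusted p under 0.05 was found for 3 of the 8 and for 807 of the 4928 units. The fit of single arrays with a replicate block called 3. Its shares of all units at 160 and 200 min are not given here, so its counts cannot be set against the 5.01% and 1.52% of the main fit.

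Both calls at 160 min were lost when any of the 4 strains was left out. For srx1 the difference did not pass without WT (0.47, adjusted p = 0.229), rad3 (0.69, 0.122), cds1 (0.71, 0.171) or chk1 (0.92, 0.0651), or after quantile normalization (0.36, 0.63). It also did not pass without repeat 1 of untreated rad3 at 160 min (0.64, 0.0587), an array with a median of -0.15 over probes, in an alternative chosen after seeing the data. For trx2 it did not pass without WT (-0.48, 0.173), rad3 (-0.66, 0.0796), cds1 (-0.51, 0.222) or chk1 (-0.69, 0.106). The trx2 difference also did not pass after quantile normalization (-0.58, adjusted p = 0.0592). For both srx1 and trx2 the call was lost on either probe alone, without repeat 1 and without repeat 2. The pairs also differed at 160 min in cdc22, the gene of the large subunit of ribonucleotide reductase, with an HU effect of 4.63 in WT and chk1 and 0.73 in rad3 and cds1. Whether this bears on the redox difference was not tested.

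Other redox genes with late HU in rad3 and cds1 are read against the 21.1% of all units that rose at 160 min and the 17% that rose at 200 min. Of the 9 other antioxidant enzymes 6 rose and none fell in rad3 and cds1 at 160 min, and 7 rose at 200 min. The thioredoxin-dependent peroxidase bcp1 was at 1.28 ± 0.11 and 1.17 ± 0.11, the catalase ctt1 at 0.90 ± 0.10 and 1.15 ± 0.10, and the methionine sulfoxide reductase mxr1 at 0.99 ± 0.15 and 1.04 ± 0.15. In WT and chk1 3 rose at 160 min, with bcp1 at 1.20 ± 0.11 and mxr1 at 0.94 ± 0.15, and in WT 4 rose at 200 min, where 9.88% and 5.82% of all units rose. After quantile normalization 4 of the 9 rose in rad3 and cds1 at each time, 3 in WT and chk1 at 160 min and 0 in WT at 200 min.

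Of the 12 glutathione and glutaredoxin genes 6 rose and 1 fell in rad3 and cds1 at 160 min, and 7 rose and 2 fell at 200 min. After quantile normalization 3 rose and 1 fell at 160 min, and 7 rose and 2 fell at 200 min. Under it 4 rose and none fell in WT and chk1 at 160 min, where 23.7% of all units were called. The glutathione S-transferase gst2 stood at 1.69 ± 0.23 and 2.81 ± 0.23, gst3 at 1.03 ± 0.12 and 0.83 ± 0.12, and the glutaredoxin grx1 at 0.59 ± 0.13 and 1.05 ± 0.13. In WT and chk1 at 160 min 3 genes rose, gst2, gst3 and grx1, and in WT at 200 min these were gst2, gst3 and grx1 as well, where none of the 12 passed after quantile normalization. The glutaredoxin grx4 fell in rad3 and cds1, at -0.75 ± 0.13 and -0.41 ± 0.13.

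Of the 13 signalling genes 1 rose and 4 fell in rad3 and cds1 at 160 min, and 1 rose and 3 fell at 200 min. These shares were near the 38.3% and 35.9% of all units that passed. In WT and chk1 at 160 min none rose and 3 fell, where 20.4% of all units passed. In WT at 200 min none rose and 2 fell, where 11.3% did. After quantile normalization 4 fell at 160 min in each pair of strains. The gene wis1, for the kinase that activates Sty1, was at -1.12 ± 0.11 and -0.61 ± 0.11. The gene of the exportin Crm1, which carries Pap1 out of the nucleus, was at -0.78 ± 0.10 and -0.43 ± 0.10. Of the 3 measured drug and stress genes that depend on Pap1, caf5 (a transporter) rose in rad3 and cds1 by 1.15 ± 0.12 at 160 min and 1.53 ± 0.12 at 200 min, and in WT at 200 min by 0.84 ± 0.16. The flavodoxin-like gene obr1 rose by 1.00 ± 0.21 and the transporter gene pmd1 by 0.34 ± 0.11 in rad3 and cds1 at 200 min. After quantile normalization 1 of these 3 genes rose there at each time, and none passed in WT at 200 min.

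Across the 41 conditions, which share a reference and within a strain a culture, the levels of srx1 and gpx1 followed each other most closely among the 8 genes (Pearson r = 0.94, and 0.84 over the 37 conditions after the start). The level of trx2 ran against both (r = -0.80 with srx1 and -0.81 with gpx1), but less so after the start (-0.58 and -0.57). With tpx1 its r was -0.80 after the start and -0.57 over all 41 conditions. The level of trr1 had r between -0.18 and 0.23 with the other 7. These are descriptions over conditions that are not independent.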

How the data were processed

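The deposited values are log2 ratios of sample (Cy5) over reference (Cy3), made by the authors; the direction follows the dyes per the labels. How background was corrected and arrays normalized is not given in the sources used here. Of 9858 probes, 9632 had 1 gene symbol, 44 several and 182 none, and symbols of 9582 were updated through RefSeq's gene table for ASM294v3, from which only names were taken. Probes with values on under 80% of arrays (35) were left out and probes of a gene averaged, which gave 4928 units. Arrays have no depth, and their number limits the precision.

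Condition means were fitted with limma 3.58.1 in R 4.3.3 (lmFit and eBayes), with Benjamini-Hochberg adjustment over all units and a threshold of 0.05. The 23 start and untreated conditions were fitted with terms for strain and time, leaving 14 residual degrees of freedom. The 18 differences of HU minus untreated had a term for each pair of strains and time (8 residual degrees of freedom). The fits were also run on simulated data with independent noise around a single mean per gene and changes added to some genes. That run had no shared cultures, repeat gaps or wider 0 min arrays, so it does not bear on those. All 8 members are described; other genes are given by list counts, with up to 4 of each list by size of effect. The marker genes cdc22, gpd1 and hsp9 and the genes ccs1, caf5, obr1 and pmd1 were named after their values were seen. For tpx1, srx1 and trr1 the 5 most correlated genes are named.

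The members and the lists were chosen with earlier results of these data known. Of the listed symbols, gsh2 and glr1 are other names of genes counted once, and bfr1 was not matched. The list of drug and stress genes that depend on Pap1 had 5 symbols, of which 3 were measured. Alternatives were quantile normalization, median centring, each repeat or strain left out, arrays as samples with a replicate block, the matching chk1 arrays put back, no 0 min, no filter, a trended robust fit and each probe alone.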

Additional observations from a re-analysis of the deposited data

Results flagged for a closer look

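The HU effect at 160 min differed between the pairs of strains for 2 of the 8 genes by limma's test of the difference itself. For srx1 it was larger in rad3 and cds1 than in WT and chk1 by 0.70 (0.6957 before rounding, adjusted p = 0.0359), with 0.99 in rad3, 0.97 in cds1, 0.05 in WT and 0.51 in chk1. For trx2 it was lower by 0.58 (-0.5822 before rounding, adjusted p = 0.0269), with -0.57 in rad3, -0.72 in cds1, 0.04 in WT and -0.17 in chk1. Of 15 alternatives, the call held in 5 for srx1 and in 6 for trx2.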

How the results depend on the processing

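Of 51 called values of the 8 genes, 19 passed with the same sign under every alternative that gave a value, and of their 759 alternative values 657 did, 98 no longer passed and the rest changed sign. The sign changed for sod1 at the start (-0.85) and for trx1 at 200 min over both pairs (-0.0865) after quantile normalization, for tpx1 in WT at 200 min on the first probe (-0.0305), and for trr1 (0.45, against -0.91 without replicate 1) and pap1 (0.23, against -0.38) in rad3 against WT without replicate 2. The pap1 value had not passed at first. After quantile normalization the members called were 4 for the time course (2 at first), 3 of mutants against WT (5), 1 for HU in WT and chk1 (6), 9 with HU in rad3 and cds1 (14), 7 for the mean of both pairs (12) and 0 for the difference between pairs (2). Leaving out a replicate gave 2 to 4 for the time course, 5 to 14 for mutants, 2 to 5 in WT and chk1, 12 to 14 for HU in rad3 and cds1, 10 to 12 for the mean and 0 to 1 for the difference. Leaving out rad3 gave 4 for the time course and 0 for the difference, leaving out cds1 gave 0 for the difference, and leaving out chk1 gave 2 in WT and chk1 and 0 for the difference. With the matching chk1 arrays put back the time course had 4 and the difference 8. Those arrays nearly equal WT arrays, so this setting counts WT values again as chk1. Without 0 min there were 5 for the time course and 10 for mutants. The first probe alone gave 1 in WT and chk1 and 1 for the difference, and the second gave 0 for the difference. Start calls stayed at 3 to 4. Without WT there is no contrast of mutants with WT and no pair value at 120 and 200 min. The labels do not say that repeat numbers pair samples across arms. Deviations of same-numbered arrays correlated at -0.03 to 0.78 over 18 pairs, above 0.1 in 13 but not in all, so the main fits did not take the numbers as pairs. The HU fits with a replicate block did, since they subtracted the untreated array of the same number from each HU array. Arrays as samples with a replicate block gave 6 for the time course, 10 for mutants, 8 for HU in WT and chk1, 16 for HU in rad3 and cds1, 13 for the mean and 8 for the difference. All these counts are given here without the share of all units under the same alternative. They describe the 8 members and cannot be set against other genes. The cause of the changes between settings was not tested, beyond the fewer samples of a fit that leaves some out.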

Other observations

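Over the 41 conditions and 4805 genes compared, the gene most like tpx1 was tfa1 (Pearson r = 0.94), followed by msp1 (0.90), rhp16 (0.86), zta1 (0.84) and cdc37 (0.84). The likeness of tfa1 lay with the second tpx1 probe, which had r = 0.93 with it over 82 arrays, against 0.51 for the first. The genes most like srx1 were SPOM_SPAC19G12.09 (0.97), pbi2 (0.96), SPOM_SPBC16A3.02C (0.96), etr1 (0.96) and SPOM_SPAC9E9.04 (0.95), and without the 4 start conditions these had r from 0.90 to 0.96. Those most like trr1 reached at most 0.79 (SPAC27F1.01c), followed by amt1 (0.75), ost3 (0.74), cbm1 (0.74) and qcr7 (0.74). These conditions share a reference, and those of a strain share a culture.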
